A study of Mus musculus with 6 samples.

Results

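The genes described here make, remove, carry or sense adenosine. They were named by function, as 8 genes: the surface enzymes Entpd1 and Nt5e, the adenosine-removing enzymes Ada and Adk, the transporter Slc29a1, and the receptors Adora2a, Adora2b and Adora3. Every probe set whose platform annotation named exactly 1 gene symbol, and that symbol one of the 8, was taken, which gave 16 of the 45037 probe sets and 6 of the 18193 genes. Adora2a and Adora2b are not analysed here. The set was chosen by function, but with the measured intensities already known: it was selected on a high NOX-A12 value at 1 Nt5e probe set and a disagreement between the Nt5e probe sets. The values of the members under treatment are therefore descriptions.

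Whole bone marrow came from 3 SCID/Bg mice given NOX-A12 and from 3 untreated SCID/Bg mice, 1 Affymetrix Mouse Genome 430 2.0 array for each mouse. SCID/Bg mice, which here make up both groups, lack mature T and B lymphocytes and have impaired natural killer cells. NOX-A12 is a mirror-image oligonucleotide that binds the chemokine CXCL12. The sources used here give no dose, schedule, age or sex. Values are the authors' deposited probe-set intensities on a linear scale, and a log2 change is NOX-A12 minus untreated on the scale of log2(intensity + 16), which understates the change of dim probe sets.

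Extracellular ATP released by stressed or activated cells is cut to AMP by CD39, the product of Entpd1, and AMP is cut to adenosine by CD73, the product of Nt5e. Adenosine acts on G-protein-coupled receptors, of which those of Adora2a and Adora2b raise cyclic AMP and those of Adora1 and Adora3 lower it, and in leukocytes the cyclic AMP-raising receptors restrain activation. The signal ends when adenosine enters cells through equilibrative transporters such as ENT1 (Slc29a1) and is phosphorylated by adenosine kinase (Adk) or deaminated to inosine by adenosine deaminase (Ada). In marrow, CD73 is known as a surface marker of mesenchymal stromal cells and is also carried by endothelium and some lymphocytes.

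The 250 bases before and 50 bases after the annotated starts of Nt5e and Entpd1 are shown because these genes encode the successive adenosine-producing enzymes and held the largest positive log2 changes among the members. Sequences are from RefSeq on GRCm38.p6, where 7 of the 8 genes matched an entry. Nt5e has 1 window, chr9:88327359-88327658 on the plus strand, and Entpd1 has 2, chr19:40612116-40612415 and chr19:40659520-40659819, both on the plus strand. Capitals mark matches on either strand to GGGCGG, the GC box bound by Sp-family factors, to TGACG, the core of the cyclic AMP response element, or to ACGTG, the core of the hypoxia response element.
Nt5e: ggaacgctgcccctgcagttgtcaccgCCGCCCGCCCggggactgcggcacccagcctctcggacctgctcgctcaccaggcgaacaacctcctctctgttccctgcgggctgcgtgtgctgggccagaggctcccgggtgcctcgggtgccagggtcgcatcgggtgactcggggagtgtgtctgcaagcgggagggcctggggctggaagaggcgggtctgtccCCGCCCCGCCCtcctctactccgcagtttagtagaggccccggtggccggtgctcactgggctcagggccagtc
Entpd1 window 1: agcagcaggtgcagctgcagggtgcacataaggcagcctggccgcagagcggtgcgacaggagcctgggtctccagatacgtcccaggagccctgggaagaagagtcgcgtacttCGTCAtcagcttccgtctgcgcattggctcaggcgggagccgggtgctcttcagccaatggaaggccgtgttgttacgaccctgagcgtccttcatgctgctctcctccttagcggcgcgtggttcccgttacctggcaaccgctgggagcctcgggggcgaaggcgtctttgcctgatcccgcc
Entpd1 window 2: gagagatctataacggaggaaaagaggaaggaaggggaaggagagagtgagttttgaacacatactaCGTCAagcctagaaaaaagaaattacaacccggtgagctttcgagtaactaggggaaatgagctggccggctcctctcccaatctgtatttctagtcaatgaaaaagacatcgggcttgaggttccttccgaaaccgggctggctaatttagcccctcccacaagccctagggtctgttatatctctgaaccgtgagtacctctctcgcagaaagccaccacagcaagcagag
The Nt5e window held 4 GC boxes, read as CCGCCC on the printed strand in 2 overlapping pairs, and no match to either of the other motifs. Each Entpd1 window held 1 cyclic AMP response core, read as CGTCA on the printed strand, and no GC box. Of the 32851 windows of 300 bases in the table, 35.7% held a GC box, 20.8% a cyclic AMP response core and 19.6% a hypoxia response core. The G and C content was 71.0% in the Nt5e window, 64% and 48.7% in the Entpd1 windows, and 52.7% in the median window. A match describes these letters only.

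The arrays had median intensities from 44.8 to 45.6. Transcripts that define the main lineages of whole marrow were bright: Slc4a1, the red-cell anion exchanger, averaged 9271 in NOX-A12 and 9281 in untreated mice, and S100a8, a neutrophil calcium-binding protein, 16616 in NOX-A12 and 16576 in untreated mice. The array of untreated mouse 3 stood apart, with correlations to the others of 0.982 to 0.985 across probe sets and 851 probe sets that differed over 2-fold from the middle of the remaining 5 arrays (44 to 67 for any other array). The members' log2 changes and the list medians that are printed are therefore also given without that mouse. So are the printed log2 changes of other named genes that moved by over 1.5-fold without it. Named genes printed without a log2 change have no such second value. With 3 arrays a group, precision is limited by their number.

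None of the members passed the test. With limma's moderated test and Benjamini-Hochberg adjustment over all probe sets, 0 of the 16 probe sets had an adjusted p under 0.05 (range 0.926 to 0.998), against 0.00% of all probe sets, which had a minimum of 0.790. Before adjustment, 1 member probe set was higher with p under 0.05, against 1.88% of all probe sets, and 2 were lower, against 3.10%. The same 3 of 16 probe sets had groups that did not overlap, against 9.85% of all probe sets. The median log2 change was 0.01 over the members and 0.00 over all probe sets. Simulated arrays took the means and spreads of these 45037 probe sets, with independent normal noise and no array that stood apart. In each of 10 runs, 200 bright probe sets were changed 1.5-fold, 2-fold or 4-fold. The fit recovered 16.7% of those changed 1.5-fold, 58.4% of those changed 2-fold and 91.9% of those changed 4-fold. These shares depend on the settings of the simulation and do not give the power of the measured arrays.

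Of the production enzymes, Nt5e had the largest value and the widest disagreement between its probe sets. At probe set 1428547_at, the brightest, intensities were 641.66, 729.34 and 637.53 in NOX-A12 mice, against 349.75, 462.72 and 304.16 in untreated mice. All 3 NOX-A12 mice lay above all 3 untreated mice. The means were 669.5 ± 51.9 in NOX-A12 and 372.2 ± 81.6 in untreated mice (SD, n = 3 each), a ratio of 1.80 and a log2 change of 0.84 ± 0.16 (SE, 95% interval 0.47 to 1.21; limma adjusted p = 0.926). Without untreated mouse 3 the log2 change was 0.71, and without untreated mouse 2, the highest of its group, it was 1.00.

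At Nt5e probe set 1422974_at the intensities were 128.25, 127.49 and 166.41 in NOX-A12 mice, against 142.77, 108.31 and 162.35 in untreated mice. The groups overlapped, and the log2 change was 0.03 ± 0.16 (SE, 95% interval -0.35 to 0.42), or 0.15 without untreated mouse 3. The remaining Nt5e probe set, 1459023_at, was listed at 1, the lowest level at which many values of the table stand, in 5 of 6 mice and at 1.54 in NOX-A12 mouse 3, and gave no usable comparison. Which stretch of the transcript each probe set reads is not given in the sources used here.

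**Figure D1:**
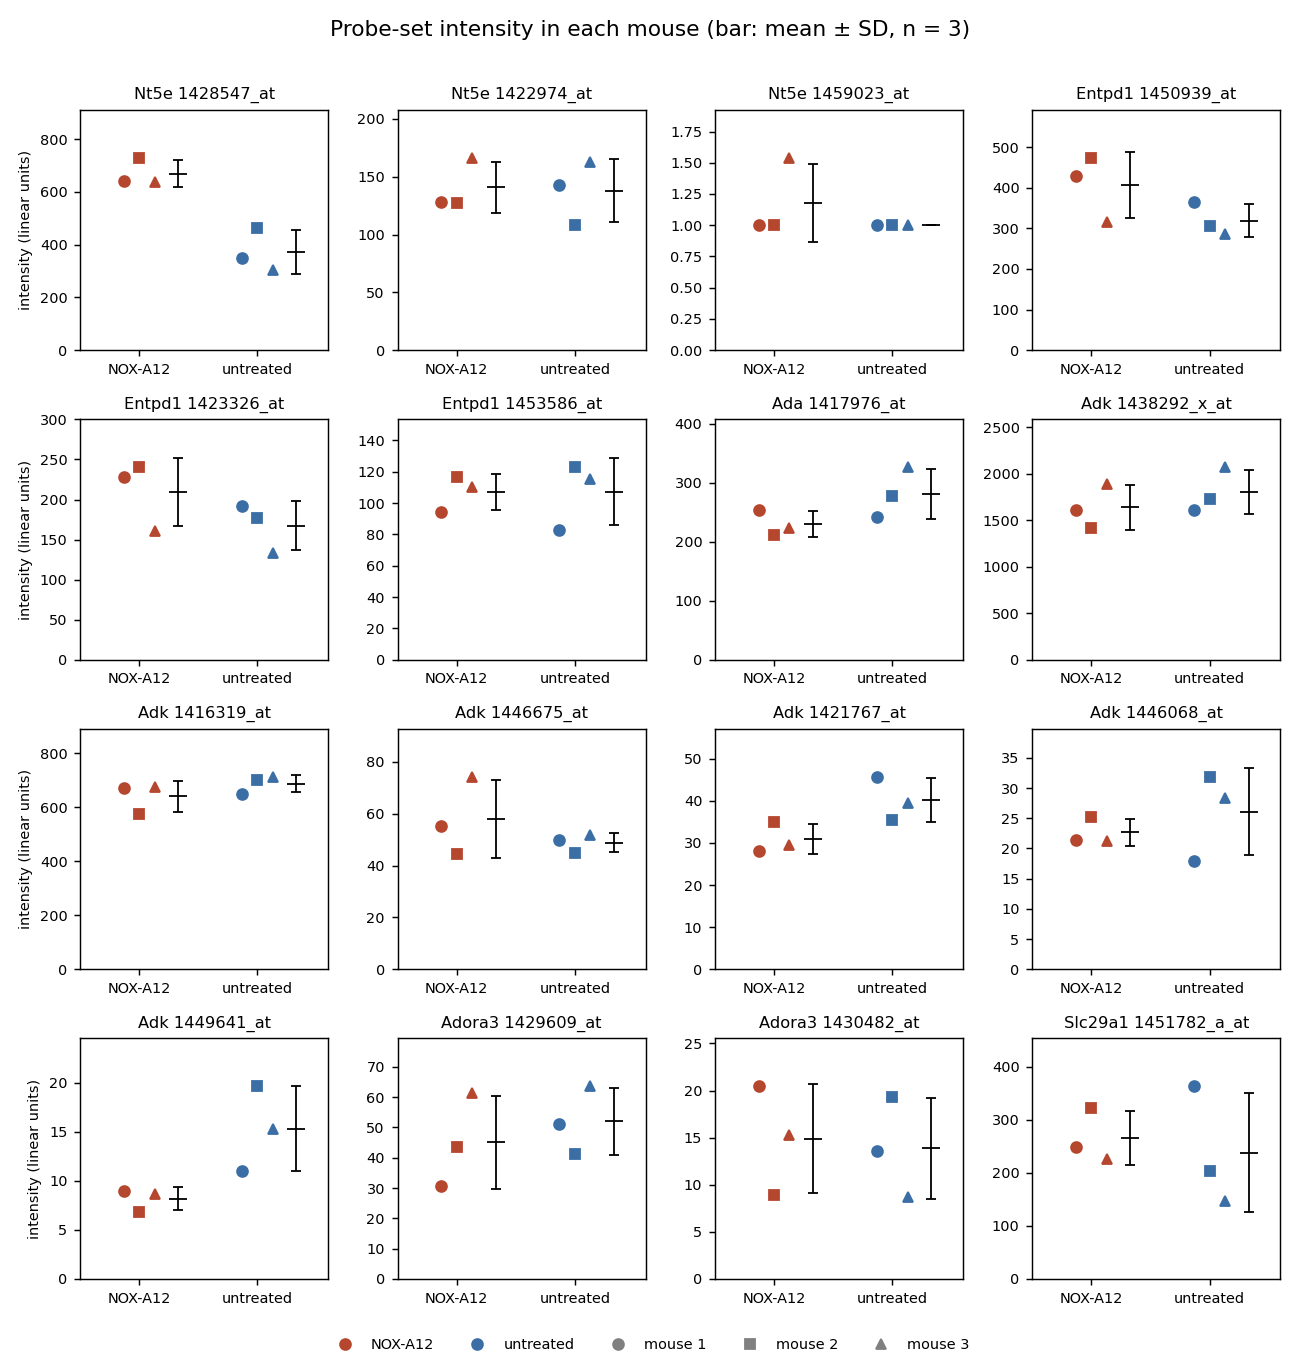
Probe-set intensity (linear units, axes from 0, a scale of its own in each panel) of the 16 member probe sets in NOX-A12 mice (red, left) and untreated mice (blue, right), with the marker shape giving the mouse number and the bar the mean ± SD of 3 mice. Nt5e 1428547_at is separated between groups (637.53 to 729.34 in NOX-A12 against 304.16 to 462.72 in untreated mice), while Nt5e 1422974_at is not.

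Entpd1, the gene of the enzyme acting just before CD73, had positive log2 changes at its 2 brighter probe sets, with groups that overlapped. Probe set 1450939_at read 429.79, 473.7 and 316.74 in NOX-A12 mice, against 363.6, 306.06 and 284.88 in untreated mice. NOX-A12 mice 1 and 2 lay above every untreated mouse, and NOX-A12 mouse 3 lay within the untreated range. The log2 change was 0.33 ± 0.17 (SE, 95% interval -0.06 to 0.72), 0.25 without untreated mouse 3 and 0.49 without NOX-A12 mouse 3. Probe set 1423326_at, annotated to the same source sequence, read 227.71, 240.24 and 160.33 in NOX-A12 mice, against 192.27, 177.33 and 133.11 in untreated mice, in the same order within each group. Its log2 change was 0.29 ± 0.19 (SE), and 0.15 without untreated mouse 3. The dimmer probe set 1453586_at averaged 107.13 ± 11.5 in NOX-A12 and 107.07 ± 21.4 in untreated mice (SD, n = 3 each), a log2 change of 0.01 ± 0.15 (SE), or 0.07 without untreated mouse 3.

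Differences between probe sets of a gene were computed within each mouse, for the 7 pairs of member probe sets whose mean lay above 45.3, the median of all probe-set means. For Nt5e, 1428547_at minus 1422974_at was 2.19, 2.38 and 1.84 in NOX-A12 mice, against 1.20, 1.95 and 0.84 in untreated mice, on the log2 scale. NOX-A12 mouse 3 lay below untreated mouse 2, so the groups overlapped, and the mean difference between groups was 0.80, or 0.56 without untreated mouse 3. For Entpd1, the 2 brighter probe sets moved together, their difference averaging 0.91 ± 0.03 in NOX-A12 and 0.87 ± 0.14 in untreated mice (SD, n = 3 each; exact permutation p = 0.7, two-sided). For Adk, both bright probe sets minus 1446675_at, whose mean lay just above that median, were lower in every NOX-A12 than in every untreated mouse, with differences between group means of -0.31 and -0.27 (two-sided exact permutation p = 0.1 each, the lowest p this design allows; 0.35 after adjustment over the 7 pairs). Without untreated mouse 3 these differences were -0.24 and -0.28.

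**Figure D2:**
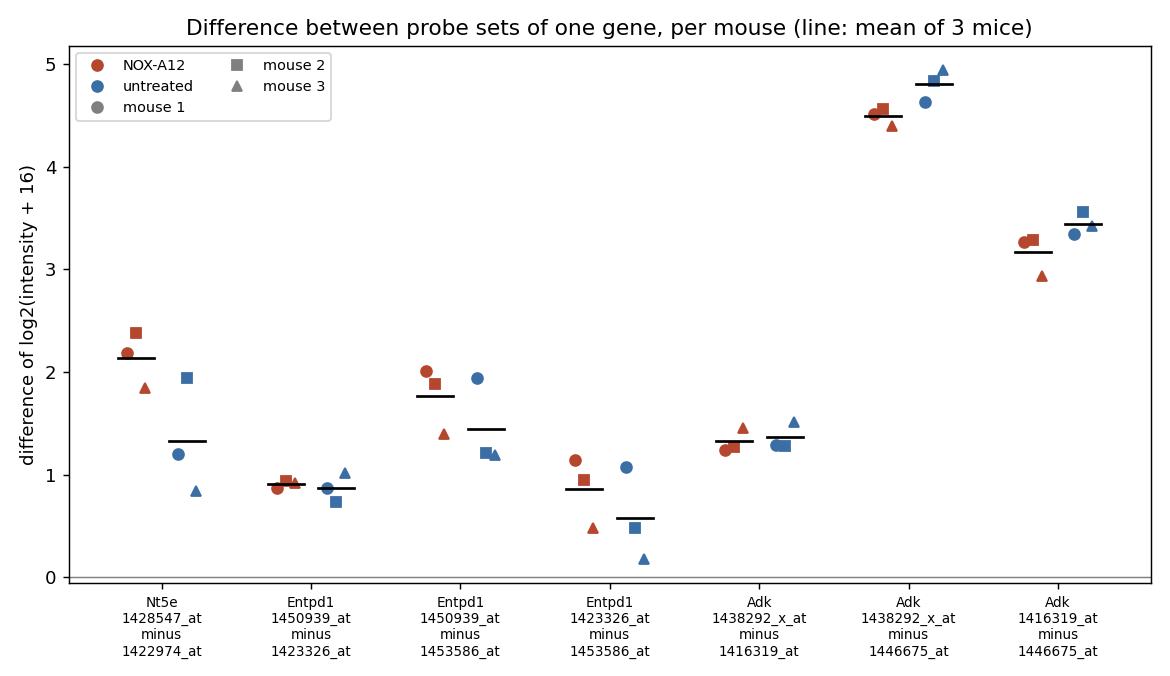
Difference of log2(intensity + 16) between 2 probe sets of the same gene within each mouse, for 7 pairs, with NOX-A12 mice (red) left of untreated mice (blue), the marker shape giving the mouse number and the line the mean of 3 mice. The Nt5e pair averages 2.14 in NOX-A12 and 1.33 in untreated mice with overlapping points, and the 2 brighter Entpd1 probe sets keep nearly the same difference in both groups.

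Ada, whose product converts adenosine to inosine and whose loss in humans causes immunodeficiency through toxic purine build-up, was measured by a single probe set, 1417976_at. It read 253.54, 211.33 and 223.07 in NOX-A12 mice, against 241.4, 277.08 and 325.92 in untreated mice. NOX-A12 mouse 1 lay above untreated mouse 1, and the other 2 NOX-A12 mice lay below every untreated mouse. The log2 change was -0.27 ± 0.13 (SE, 95% interval -0.58 to 0.04), and -0.17 without untreated mouse 3, whose value was the highest.

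Adk, which returns adenosine to AMP inside the cell, had 6 probe sets. The brightest, 1438292_x_at, carries the suffix of probe sets whose probes can match other genes. It read 1613.23, 1412.74 and 1885.19 in NOX-A12 mice, against 1611.21, 1728.96 and 2068.88 in untreated mice, and its log2 change of -0.14 ± 0.14 (SE) was -0.04 without untreated mouse 3. Probe set 1416319_at averaged 641 ± 57.5 in NOX-A12 and 688 ± 33.1 in untreated mice (SD, n = 3 each), a log2 change of -0.10 ± 0.10 (SE), or -0.08 without untreated mouse 3. At both bright probe sets the groups overlapped.

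The other 4 Adk probe sets had group means from 8.17 to 57.9, and 3 of them lay below the middle of the table. At 1449641_at the intensities were 9, 6.86 and 8.66 in NOX-A12 mice, against 11.02, 19.62 and 15.33 in untreated mice, and at 1421767_at they were 28.19, 35 and 29.55 in NOX-A12 mice, against 45.69, 35.52 and 39.42 in untreated mice. At each of them every NOX-A12 mouse lay below every untreated mouse, at 1421767_at by a margin of under 1 intensity unit between the nearest mice. The log2 changes were -0.37 ± 0.12 and -0.26 ± 0.11 (SE; limma adjusted p = 0.967 for each), and -0.36 and -0.27 without untreated mouse 3. Since both read below the middle of the table, the size of their changes depends on the offset added before the logarithm: 1449641_at gave -0.80 with an offset of 1 and -0.13 with an offset of 64. Probe set 1446675_at gave 0.17 ± 0.15 and 1446068_at -0.11 ± 0.14 (SE), or 0.20 and -0.06 without untreated mouse 3. Over the 6 Adk probe sets, 5 log2 changes were negative and 1 was positive.

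Slc29a1, the gene of the equilibrative transporter ENT1, which is abundant on red cells in humans, varied more among untreated mice than any other member above the middle of the table. Probe set 1451782_a_at read 248.89, 322.21 and 225.72 in NOX-A12 mice, against 362.79, 203.67 and 146.53 in untreated mice. The untreated mice held both the highest and the lowest value, and the NOX-A12 mice lay between them. The log2 change was 0.23 ± 0.30 (SE, 95% interval -0.47 to 0.93), 0.56 without untreated mouse 1 and -0.05 without untreated mouse 3. The summed intensity of 10 erythroid marker genes fell in the same order among the untreated mice, at 46234, 42019 and 39185. It was 41475, 43927 and 43398 in NOX-A12 mice, where the orders differed. Both were highest in NOX-A12 mouse 2, but Slc29a1 was lowest in NOX-A12 mouse 3 and the sum in NOX-A12 mouse 1. The part of red-cell precursors in the Slc29a1 values was not tested.

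Adora3, which encodes the Gi-coupled A3 receptor found on mast cells and eosinophils, had 1 probe set just above and 1 below the middle of the table. Probe set 1429609_at read 30.64, 43.58 and 61.29 in NOX-A12 mice, against 51.18, 41.34 and 63.55 in untreated mice, and 1430482_at read 20.44, 8.9 and 15.27 in NOX-A12 mice, against 13.56, 19.37 and 8.7 in untreated mice. The groups overlapped at both, with log2 changes of -0.17 ± 0.20 and 0.05 ± 0.18 (SE), or -0.05 and -0.08 without untreated mouse 3. The summed intensity of 11 mast cell, basophil and eosinophil markers was 14058 to 17478 in NOX-A12 and 13621 to 16098 in untreated mice.

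**Figure D3:**
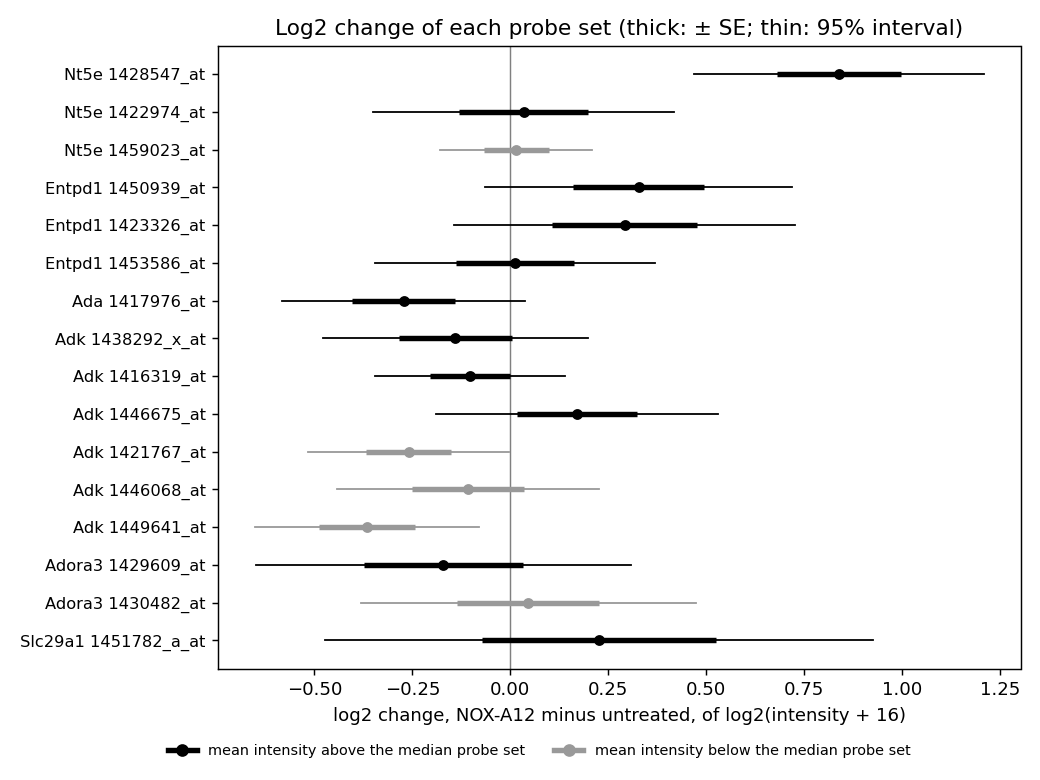
Log2 change, NOX-A12 minus untreated, of each of the 16 member probe sets, with the SE as a thick bar and the 95% interval as a thin bar, in black where the mean intensity was above that of the median probe set and in grey where it was below. Nt5e 1428547_at stands at 0.84 and the others lie between -0.37 and 0.33.

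The summed intensities of some cell-type marker lists were separated between the treatment groups, and those of others overlapped. The part of these cell types in the member values was not tested. In bulk marrow, fewer cells of a type and less RNA per cell cannot be told apart. Each marker gene is represented by its brightest probe set. All 14 stromal reticular markers then had negative log2 changes (median -0.45, or -0.39 without untreated mouse 3), with a summed intensity of 9890 to 11332 in NOX-A12 and 12268 to 13888 in untreated mice. Over all 37 probe sets of these genes, 30 log2 changes were negative and 7 positive, the positive ones including other probe sets of Cxcl12 (0.28), Lepr (0.22), Vcam1 (0.51), Dcn (0.29) and Igfbp5 (0.15). All 14 endothelial markers were also negative (median -0.24), with sums of 1328 to 1402 in NOX-A12 and 1595 to 1902 in untreated mice, and over their 23 probe sets 21 were negative. The endothelial median without untreated mouse 3 was -0.31, with 13 of 14 negative. The 9 B lineage markers summed to 3741 to 4949 in NOX-A12 and 4969 to 6140 in untreated mice, with 8 of 9 log2 changes negative (median -0.32, or -0.40 without untreated mouse 3).

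Among the 11 monocyte and macrophage markers, Cd14, the lipopolysaccharide co-receptor gene, read 2687, 2292 and 1420 in NOX-A12 mice, against 399, 480 and 525 in untreated mice, a log2 change of 2.11 ± 0.23 (SE; limma adjusted p = 0.790). The list summed to 21552 to 23763 in NOX-A12 and 17622 to 21384 in untreated mice. Without Cd14, an alternative chosen after seeing the data, the sums were 20132 to 21471 in NOX-A12 and 17098 to 20986 in untreated mice and overlapped. Of the 11 log2 changes 6 were negative (median -0.03, or -0.10 without untreated mouse 3). Among 11 lymphocyte markers of the T and natural killer lineages, Cd3d, a chain of the T-cell receptor complex, averaged 1813 in NOX-A12 and 1319 in untreated mice without overlap (log2 change 0.46 ± 0.14), and Cd3g gave 0.50 ± 0.24 with overlap (SE). The other T-cell markers Cd3e, Cd4 and Cd8a averaged 8.19, 3.19 and 42.6 in NOX-A12 and 9.63, 3.98 and 40.1 in untreated mice. The natural killer receptor genes Klrd1 and Klrc1, the transcription factor gene Eomes and the chemokine gene Ccl5 had groups without overlap. Every NOX-A12 mouse lay below every untreated mouse, with log2 changes of -0.52, -0.60, -0.37 and -0.38. The other probe sets of Klrc1 and Eomes gave -0.07 and -0.03. Ncr1 and Gzma of the same list gave -0.34 and -0.12 with overlapping groups, or -0.60 and -0.07 without untreated mouse 3. The sums of this list overlapped, at 4088 to 5002 in NOX-A12 and 4488 to 4797 in untreated mice (median log2 change -0.12, or -0.29 without untreated mouse 3). Neutrophil marker sums overlapped, at 102979 to 106451 in NOX-A12 and 96980 to 107063 in untreated mice. Megakaryocyte sums were 12915 to 14985 in NOX-A12 and 12181 to 15526 in untreated mice. Skeletal muscle sums were 323 to 386 in NOX-A12 and 337 to 697 in untreated mice. The 697 was untreated mouse 3, where Myh1 read 355.05. In the other untreated mice Myh1 read 9.8 and 22.94, and in NOX-A12 mice 8.3 to 24.95. None of the marker genes passed limma's adjusted threshold.

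The 5 genes whose profile over the 6 mice was nearest to Nt5e 1428547_at, by the root mean square difference of centred log2 values, were Orm1, Ifnz, Mpzl2, Irs2 and Ms4a6d. The difference was 0.13 for Orm1, an acute-phase glycoprotein gene, 0.19 for the interferon zeta gene Ifnz, and 0.22 for each of the adhesion protein gene Mpzl2, the insulin receptor substrate gene Irs2 and the myeloid membrane protein gene Ms4a6d. The median over the 18658 candidate probe sets was 0.47. Orm1 read 884.56, 876.52 and 872.48 in NOX-A12 mice, against 513.72, 523.96 and 418.14 in untreated mice. In Nt5e, Orm1, Ifnz, Irs2 and Ms4a6d, but not in Mpzl2, untreated mouse 3 was the lowest of the 6. Groups overlapped only for Irs2 among these, while 9.85% of all probe sets had groups that did not overlap. The low value of untreated mouse 3 and the separation of groups follow largely from choosing profiles near Nt5e 1428547_at. Neither is a result about these genes.

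**Figure D4:**
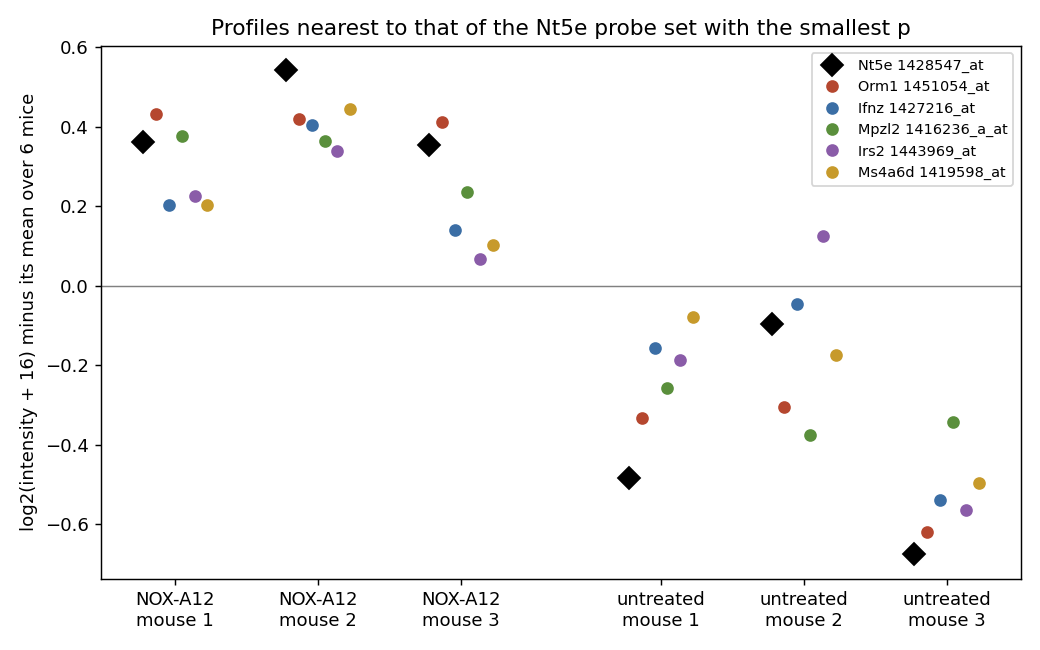
Log2(intensity + 16) minus its mean over the 6 mice, by mouse, for Nt5e 1428547_at (black diamonds) and the 5 genes with the nearest profiles, NOX-A12 mice on the left. The 5 genes were chosen for lying close to Nt5e, so the side of 0 on which the points lie follows from that choice, and the plot shows only how close they are, at 0.13 to 0.22 in root mean square difference.

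The wider pathway was followed in 6 lists of 104 genes, of which 92 had a probe set of their own, taking the brightest for each gene. None of the 92 passed limma's adjusted threshold in either direction. At an unadjusted limma p under 0.05, 3 were higher, against 1.88% of all probe sets, and 4 were lower, against 3.10%. The groups did not overlap for 17, or 18.5%, against 9.85% of all probe sets. The 92 are the brightest probe sets of annotated genes, with 15 below the middle of the table, so these shares cover unlike probe sets. There were 50 positive and 42 negative log2 changes, with a median of 0.02.

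Another list held 11 enzymes that split nucleotides or related molecules, not all of them at the cell surface. Of these, 5 log2 changes were positive and 6 negative, with a median of 0.00, or -0.11 without untreated mouse 3. Enpp3, an ectonucleotide pyrophosphatase of basophils and mast cells, read 60.52, 62.85 and 62.79 in NOX-A12 mice, against 77.73, 88.26 and 98.61 in untreated mice, a log2 change of -0.41 ± 0.10 (SE), although its other probe sets ran from -0.61 to 0.23. Alpl, the tissue-nonspecific alkaline phosphatase, which can also make adenosine from AMP and marks osteoblasts, read 41.51, 23.9 and 32.88 in NOX-A12 mice, against 46.88, 47.06 and 47.04 in untreated mice, a log2 change of -0.39 ± 0.14 (SE). Entpd5, a nucleoside diphosphatase of the endoplasmic reticulum, gave 0.22 ± 0.10, with other probe sets from -0.12 to 0.18, and Entpd3, a surface relative of CD39, -0.15 ± 0.15 (SE). The groups did not overlap for Enpp3, Alpl or Entpd5.

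In the list for adenosine and AMP metabolism inside the cell, 15 of 22 genes had positive log2 changes (median 0.05), or 13 of 22 (median 0.01) without untreated mouse 3. That list also holds Dpp4, the gene of a surface peptidase. The nucleotidase gene Nt5c gave 0.17 ± 0.09, Nt5c1b, a cytosolic AMP nucleotidase gene at a dim probe set, 0.21 ± 0.12, Xdh, whose product makes uric acid, 0.25 ± 0.16, and the nucleotidase gene Nt5c3b -0.21 ± 0.14 (SE). Without untreated mouse 3, Xdh gave 0.11 and Nt5c3b -0.07, and other probe sets of Nt5c3b ran from -0.03 to 0.08. Among 4 further nucleoside transporters the log2 changes were all within their errors: Slc29a2 gave -0.12 ± 0.14, Slc29a3 -0.06 ± 0.11, Slc28a3 0.08 ± 0.16 and Slc29a4 0.05 ± 0.14 (SE). Slc29a3 gave -0.12 and Slc29a4 0.12 without untreated mouse 3, other probe sets gave 0.15 for Slc29a3 and -0.13 to 0.02 for Slc28a3, and the list median was 0.00 with all mice and -0.02 without that mouse.

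Of 17 genes of the P2rx and P2ry receptor families and of ATP release, 13 had negative log2 changes and 4 positive (median -0.13, or -0.08 without untreated mouse 3). Not every P2ry receptor listed responds to ATP or ADP. Gja1, the gene of connexin 43, which forms ATP-releasing hemichannels and is strongly expressed by marrow stromal cells and osteoblasts, read 416.22, 365.4 and 401.4 in NOX-A12 mice, against 502.7, 547.42 and 725.38 in untreated mice. Every NOX-A12 mouse lay below every untreated mouse, the log2 change was -0.55 ± 0.15 (SE), and other Gja1 probe sets ran from -0.48 to 0.31. P2rx7, the ATP-gated channel of macrophages, gave -0.25 ± 0.11, the pannexin gene Panx3 -0.26 ± 0.11, and Slc17a9, which loads ATP into vesicles, 0.28 ± 0.12 (SE), all with groups that did not overlap. Panx3, at a dim probe set, gave -0.17 and Slc17a9 0.17 without untreated mouse 3. The brightest probe sets of the stromal markers were lower in the same mice, as given above, and their part in the Gja1 value was not tested.

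Downstream of the receptors, the 24 G-protein, adenylyl cyclase, kinase and phosphodiesterase genes had a median of 0.03, with 15 positive and 9 negative log2 changes. The median turned to -0.01 without untreated mouse 3, with 11 positive and 13 negative, and was also -0.01 with array weights. The inhibitory G-protein gene Gnai1 gave -0.27 ± 0.13, and the adenylyl cyclase genes Adcy3, Adcy6 and Adcy4 gave -0.21 ± 0.13, -0.23 ± 0.14 and 0.18 ± 0.12 (SE). Without untreated mouse 3, Gnai1, Adcy3 and Adcy6 gave -0.16, -0.11 and -0.14, and other probe sets of Gnai1 ran from -0.25 to 0.27 and of Adcy3 from -0.23 to 0.03. Of 14 genes that cyclic AMP can induce or that carry its signal to DNA, 9 had positive log2 changes, with a median of 0.20, or 0.15 without untreated mouse 3 and 0.05 when all probe sets of each gene were averaged. Nr4a1, an orphan nuclear receptor gene that many other stimuli also induce, read 142.73, 123.37 and 107.54 in NOX-A12 mice, against 98.12, 98.77 and 95.32 in untreated mice. Its log2 change was 0.30 ± 0.11, that of its relative Nr4a2 0.28 ± 0.14, and those of the dim Fosb and Ppargc1a 0.45 ± 0.17 and 0.30 ± 0.11 (SE). Other probe sets of Nr4a2 ran from -0.18 to 0.19 and of Ppargc1a from -0.13 to 0.22. The groups did not overlap for Nr4a1, Fosb and Ppargc1a and overlapped for Nr4a2.

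**Figure D5:**
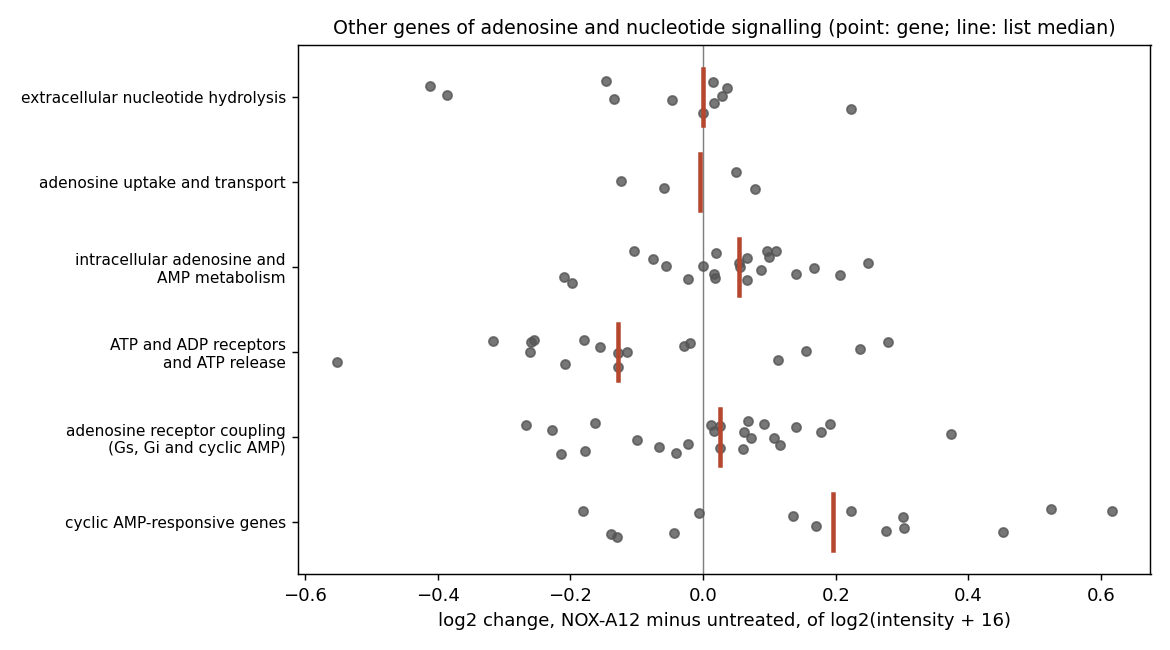
Log2 change, NOX-A12 minus untreated, of 92 other genes of adenosine and nucleotide signalling in 6 lists, 1 point a gene and a line at the list median. Medians run from -0.13 for the list labelled ATP and ADP receptors and ATP release to 0.20 for cyclic AMP-responsive genes. The former holds P2rx and P2ry receptor genes, not all of them for ATP or ADP. None of the points passed limma's adjusted threshold.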

How the data were processed

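Total RNA of whole bone marrow was labelled with biotin and hybridised to arrays, per the labels' protocols. The authors' deposited values are linear probe-set intensities from 0.66 to 16790. How they were summarised and normalized is not given in the sources used here. Array medians of log2 values lay close together, so no further normalization was applied. Groups and mouse numbers came from the sample titles, which name separate mice.

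Probe sets were named through the platform annotation (34945 with 1 symbol, 932 with several, 9160 with none listed). Log2(intensity + 16) was tested per probe set by limma (3.58.1, under R 4.3.3) with lmFit and eBayes, two-sided, over 6 arrays without covariates and with 7.24 degrees of freedom. P-values were Benjamini-Hochberg adjusted over 45037 probe sets, with a threshold of 0.05. The fit was tested on simulated data. Figures used matplotlib 3.10.9.

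Members and lists were chosen with earlier results of these data known. Named genes were all member probe sets, the 4 smallest p in each pathway list, and the 5 nearest profiles among single-symbol probe sets above the median intensity, passing over clone and predicted-gene symbols. Fos, Dusp1, Per1, Dpp4 and the single marker genes were named after their values were seen. Alternatives were leaving out each mouse, blocking on the mouse number, weighting arrays, a robust variance trend, offsets of 1 and 64, quantile normalization, centring on medians, dropping probe sets up to the 25th percentile, and averaging a gene's probe sets.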

Additional observations from a re-analysis of the deposited data

How the results depend on the processing

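No member probe set, none of the 92 pathway genes and 0 probe sets of the whole array had a limma adjusted p under 0.05 under any of the 8 other settings or without any of the 6 mice. The lowest adjusted p over the array ran from 0.0631 without untreated mouse 1 to 1 without NOX-A12 mouse 1 or 2, and probe sets at an unadjusted p under 0.05 ran from 1508 to 3555. Of 16 member probe sets, 15 kept their sign in all 8 other settings in which they were fitted. The exception was Adora3 1430482_at (-0.09 with array weights). Leaving out dim probe sets, the robust variance trend and the mouse-number block cannot alter a log2 change, so the sign there was fixed. Of those 15, 10 also kept their sign without each mouse. Without 1 mouse, the log2 change of Nt5e 1428547_at ran from 0.71 to 1.00, that of Entpd1 1450939_at from 0.21 to 0.49, that of Ada from -0.37 to -0.17 and that of Slc29a1 from -0.05 to 0.56. The difference between the bright Nt5e probe sets, part of what the members were selected on, ran from 0.56 to 1.11 without 1 mouse and from 0.74 to 0.83 with offsets of 1 and 64 and quantile normalization, the other settings not being run for it. Mouse numbers name different animals, and deviations of same-numbered mice correlated at -0.09, 0.05 and 0.03, so the numbers pair nothing. With the mouse number as a replicate block the count was 0 as well. Each number occurs once in each group, so the log2 changes are the same with the block by design.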

Other observations

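Among the cyclic AMP-responsive genes, the members with the widest spread between mice were Fos, Per1 and Dusp1. Fos, an immediate early gene, read 3544, 2041 and 306 in NOX-A12 mice, against 2205, 618 and 449 in untreated mice. Per1, a circadian clock gene that cyclic AMP also induces, read 124, 483 and 203 in NOX-A12 mice, against 73.7, 319 and 650 in untreated mice. Dusp1, a phosphatase gene of the immediate early class, read 4116, 3135 and 1413 in NOX-A12 mice, against 2106, 3724 and 3110 in untreated mice. In all of them the groups overlapped, and the spread within each group exceeded the difference between groups. The log2 changes of Fos, Per1 and Dusp1 were 0.62, -0.13 and -0.14. Without untreated mouse 3 they were 0.17, 0.52 and -0.09.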
